A study of Bos taurus with 4 samples.

Results

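Annexins and the annexin partner S100A10 were followed in bovine (Bos taurus) morulae on a 2-colour expression array. All array probes whose platform gene symbol was ANXA1, ANXA2, ANXA3, ANXA4, ANXA5, ANXA6, ANXA7, ANXA8, ANXA11 or S100A10 were taken, which gave 18 probes of 10 genes out of 43794 probes and 15216 gene symbols. The genes were selected on measured values, the ratios of high over control glucose on these same arrays, so those ratios are given below as a description, with no test of any single gene. High glucose (HG) pools spent day 0 to day 3 of culture in synthetic oviductal fluid with 5 mM glucose, and control (CTL) pools in the same medium with 0.2 mM. From day 3 to day 5 both groups were kept in the control medium, and embryos were collected 120 h after fertilization. Ovaries came from slaughter, and maturation, fertilization and culture were carried out in vitro for both groups, in media with bovine serum albumin and serum. The Holstein breed is named for 1 channel of each array. Each of 4 arrays, areas of 1 slide, carried 1 HG pool and 1 CTL pool of 10 morulae. HG was labelled with Cy5 on areas 1 and 2 and with Cy3 on areas 3 and 4. The comparison asks whether glucose during early cleavage left a mark on transcripts of the morula.

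Annexins bind acidic membrane phospholipids when calcium rises, through a conserved core of repeats, while their differing amino termini choose partners. ANXA2 is the partner of S100A10, an S100 protein that has lost calcium binding. A dimer of S100A10 joins ANXA2 chains into a complex at the plasma membrane, which organises cortical actin and presents plasminogen and its activator. In early embryos, membrane and cortex proteins of this kind are of interest because outer cells of the morula are turning into an epithelium. ANXA1, ANXA2 and S100A10 are also well known in fibroblasts and other mesenchymal cells. Pools of whole embryos may carry cells of more than 1 type, and fewer cells of a type cannot be told apart from less RNA per cell.

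Values below are either log2 ratios of HG over CTL within an array, or normalised log2 intensities of a single pool. The background limit was the mean plus 2 SD of the negative control spots in the same array and channel. The 20226 probes above it in HG on all 4 areas or in CTL on all 4 areas were tested, and the brightest tested probe stood for each of 8874 genes. The median raw intensity of an array was 210 to 287 for Cy3 and 153 to 163 for Cy5. Whether pools derive from different fertilizations is not given by the labels, so spread between areas may be technical. The limma fit over all genes called 0 of 8874 genes at an adjusted p under 0.05 (0% called, smallest adjusted p = 0.762), and 576 genes (6.49%) lay under 0.05 by unadjusted p. Of the markers of morula cells and pluripotency, 8 of 11 on the array passed the background filter, among them KLF4, DPPA3, NANOG and POU5F1, while SOX2 and SALL4 did not.

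The signal of stromal cell markers differed between pools, and this precedes any reading of the annexins. Of 26 stromal and fibroblast markers on the array, 20 passed the background filter, and COL6A1, COL6A3, TAGLN, CALD1, TPM1 and MGP did not. Their median log2 ratio of HG over CTL was -2.20 on area 1, -0.01 on area 2, 2.15 on area 3 and -0.73 on area 4. By these medians the channel with more signal was Cy3 on areas 1 and 3 and Cy5 on area 4. Dye cannot be told apart from area or pool for these markers. The summed normalised intensity of these markers ran from 39700 to 296000 in HG pools and from 62500 to 140000 in CTL pools. Its lowest value was in the HG pool of area 1 and its highest in the HG pool of area 3. VIM, the vimentin filament gene, had log2 intensities of 10.69, 11.86, 15.29 and 13.97 in the HG pools of areas 1 to 4 and of 14.66, 11.24, 13.16 and 14.21 in the CTL pools. The brightest marker of the list, the fibronectin gene FN1, showed no such reversal, with ratios of -0.66, -0.46, -0.63 and -1.15. Of the other bright markers, SPARC was at -2.67, 0.02, 2.02 and -1.30 and CCN2 at -1.32, -0.38, 0.90 and -0.07. Markers of trophectoderm and simple epithelium, 12 of 18 above background, had medians of -0.23, -1.44, -1.30 and -0.24 on areas 1 to 4. Their summed intensity was between 29500 and 63600 in HG pools and between 74700 and 104000 in CTL pools. The sums did not overlap, as was the case for 2.17% of all tested genes taken singly, and a sum follows its brightest genes. The lowest epithelium sum was in the HG pool of area 3, where the sum of morula and pluripotency markers was also lowest (18200). Of the 12 epithelium markers, 6 were lower on all 4 areas (8.03% of all tested genes). The 4 brightest were TFAP2C (mean ratio -0.09 ± 0.91), KRT8 (-1.81 ± 0.76), EPCAM (-0.69 ± 1.25) and PLAC8 (-1.14 ± 1.07), with n = 4 for each. CDH1, CLDN7, DSC2, GATA3, CDX2 and TEAD4 did not pass the filter.

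**Figure D1:**
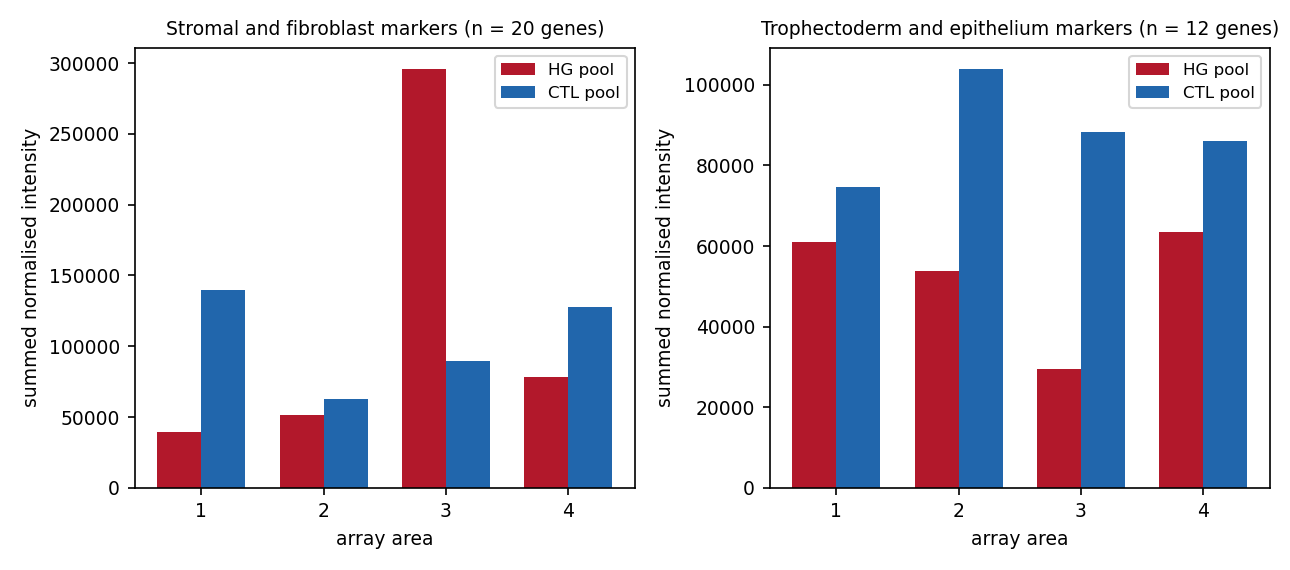
Summed normalised intensity (vertical axis, intensity units) of stromal markers (left) and of trophectoderm and epithelium markers (right) in the HG pool (red bar) and the CTL pool (blue bar) of each array area. The HG pool of area 3 holds the highest stromal sum, 296000, and the HG pool of area 1 the lowest, 39700. The epithelium sum is lower in HG than in CTL on every area.

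Of the 10 genes, all had at least 1 probe above the background filter, and 14 of the 18 probes passed it. ANXA3 passed only through its CTL pools. Lower ratios on all 4 areas were seen for 2 of the 10 genes, ANXA2 and ANXA3, where 8.03% of all tested genes were lower on all 4. Higher ratios on all 4 areas were seen for 0 of the 10 (6.03% of tested genes). Lower ratios on areas 1, 2 and 4 were seen for 5 of the 10, ANXA1, ANXA2, ANXA3, ANXA4 and S100A10 (17.2% of tested genes). Lower ratios on both area 2 and area 4 were seen for 7 of the 10 (28% of tested genes), and a mean ratio below 0 for 8 of the 10 (53.8%). A ratio below -1 was seen for 5 genes on area 1 (13% of tested genes) and for 4 genes on area 2 (3.13%). A ratio above 1 was seen for 3 genes on area 3 (8.97%), and on area 4 only ANXA1 was past 1 in either direction (5.25%). Because the genes were chosen with this contrast known, nothing is read from these shares. The median over the 10 genes was -0.98, -0.27, 0.08 and -0.55 on areas 1 to 4, against -0.04, 0.00, -0.01 and -0.03 over all genes tested.

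**Figure D2:**
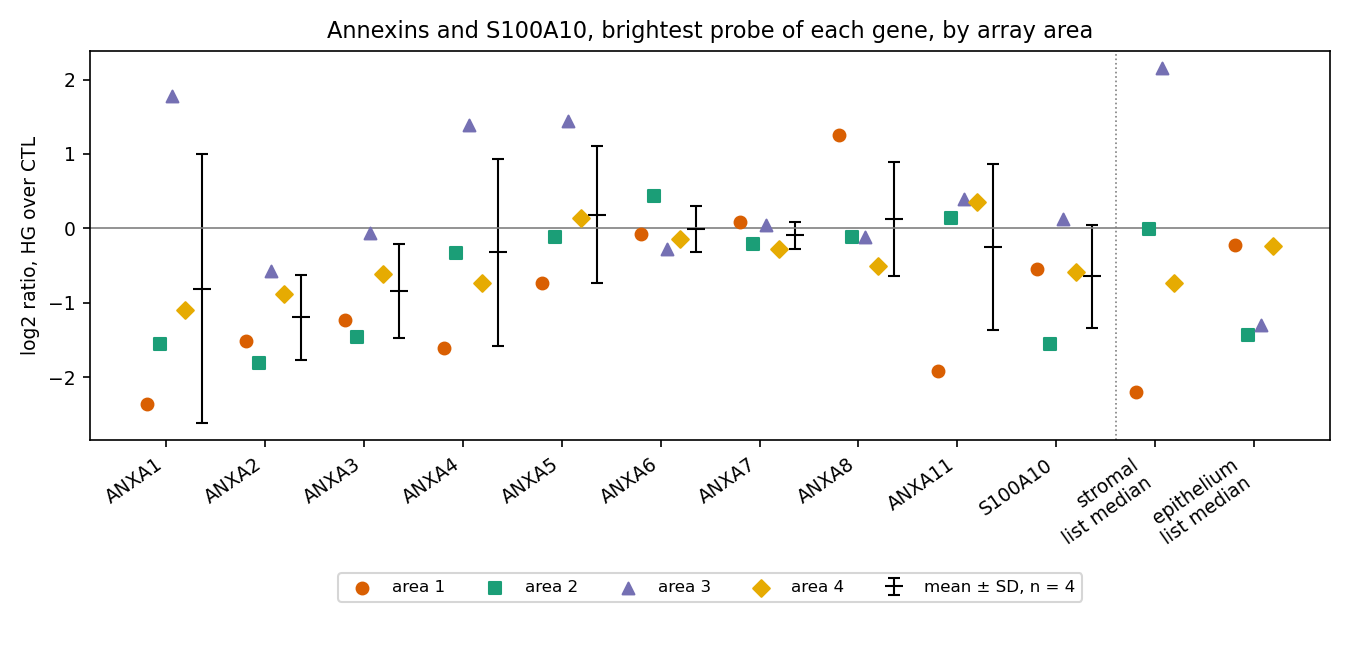
Log2 ratio of HG over CTL (vertical axis) for the brightest probe of each annexin and of S100A10, with the medians of the stromal and epithelium marker lists at the right. Symbols are the 4 array areas, and black bars give the mean ± SD over 4 areas. ANXA2 lies below 0 on every area, ANXA1 and ANXA4 are spread like the stromal median on areas 1 and 3, and ANXA6 and ANXA7 stay close to 0.

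ANXA2 and S100A10, the members of the membrane complex, had lower mean signal in HG and did not meet the bounds of the stromal pattern, below -1 on area 1 and above 1 on area 3. ANXA2 was below 0 on both areas, whereas S100A10 changed sign between them by a smaller step. ANXA2 ratios were -1.52, -1.81, -0.57 and -0.88 on areas 1 to 4, a mean of -1.19 ± 0.57 (SD, n = 4) or 2.29-fold lower signal in HG. Its log2 intensity was 10.56, 10.93, 12.04 and 11.99 in the HG pools and 12.07, 12.74, 12.61 and 12.87 in the CTL pools. All 4 HG pools lay below the lowest CTL pool, though the pools nearest to each other, 12.04 and 12.07, almost met. ANXA2 was the 1 gene of the 10 for which this held, while 2.17% of all tested genes had every HG pool below every CTL pool. For 0 of the 10 did every HG pool lie above every CTL pool (1.33% of tested genes). Among 8874 genes, ANXA2 ranked 11 from the lowest mean ratio, a rank that depended on the direction of areas 1 and 3. With the sign of area 3 turned it was 326 and with that of area 1 turned 707, and leaving out area 1, 2 or 3 gave 45, 54 or 53. The 2 HG pools in Cy5 were lower than the 2 in Cy3, and the mean ratio was -1.66 on areas 1 and 2 and -0.72 on areas 3 and 4. HG pools of different dye lie on different areas, so dye cannot be told apart from area or pool here.

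S100A10 ratios were -0.55, -1.56, 0.12 and -0.58, a mean of -0.64 ± 0.69 (n = 4). Its log2 intensity was 12.72, 12.07, 13.14 and 12.69 in the HG pools and 13.27, 13.63, 13.02 and 13.27 in the CTL pools. The groups overlapped through the HG pool of area 3 alone, and the other 3 HG pools lay below every CTL pool. The mean of S100A10 rested partly on area 2: without it the mean was -0.34. Set side by side, the log2 ratio of ANXA2 minus that of its partner was -0.97, -0.25, -0.69 and -0.30 on areas 1 to 4. Both genes had their lowest ratio on area 2 and their highest on area 3.

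ANXA3 is an annexin studied in epithelial and tumour cells. Its ratios were -1.23, -1.46, -0.06 and -0.62, with a mean of -0.84 ± 0.63 (n = 4), or -0.43 with the mean in place of the median local background and -0.60 with no background correction. The signal was dim. It was above background in the CTL pool of all 4 areas but in the HG pool of area 3 alone, so the ratios on areas 1, 2 and 4 compare a measured CTL signal with an HG signal not well above background. Log2 intensities were 6.30, 6.32, 7.65 and 6.88 in HG and 7.53, 7.78, 7.71 and 7.50 in CTL, and 3 HG pools lay below the lowest CTL pool. Its sign and its distance to other genes are therefore not read further. The Euclidean distance over the 4 ratios was 1.25 between ANXA2 and S100A10. To the stromal median the distances were 3.34 (ANXA2) and 3.05 (S100A10), and to the epithelium median 1.66 and 1.50. ANXA6 (3.31 and 2.14), ANXA7 (3.15 and 1.85) and ANXA8 (4.13 and 2.33) were also nearer to the epithelium median. ANXA1, ANXA4, ANXA5 and ANXA11 were nearer to the stromal median. A gene with ratios close to 0, such as ANXA7, is nearer to the epithelium median too, so no likeness to epithelium markers is read from these distances. The summed signal of epithelium markers was also lower in the HG pools, as given above. Its part in the values of ANXA2, ANXA3 and S100A10 was not tested.

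**Figure D3:**
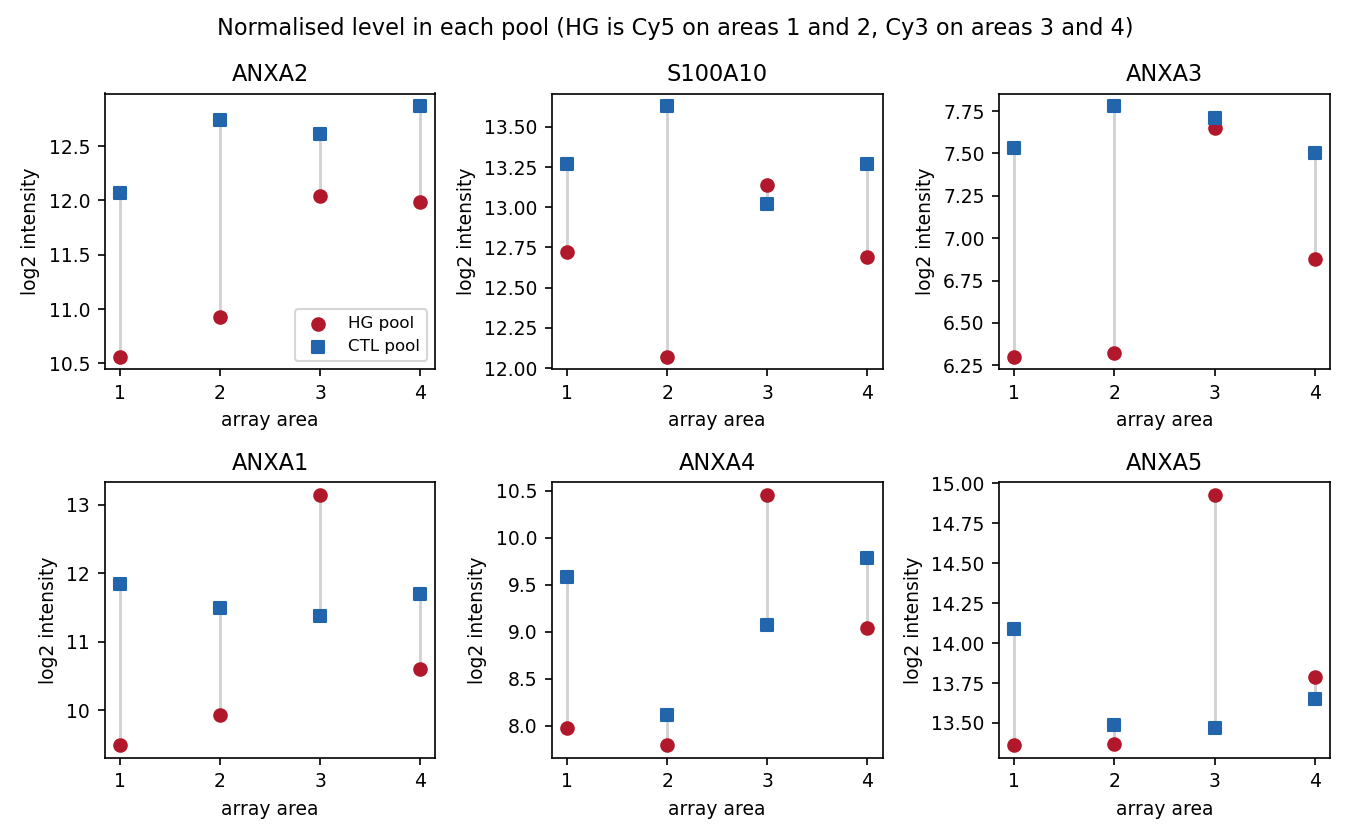
Normalised log2 intensity (vertical axis, a different range in each panel) in the HG pool (red circle) and the CTL pool (blue square) of each array area for 6 genes. All HG points of ANXA2 lie below all CTL points, whereas for ANXA1, ANXA4 and ANXA5 the HG pool of area 3 is the highest of the 8 pools.

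ANXA1 and ANXA4 were the 2 of the 10 genes whose ratio was below -1 on area 1 and above 1 on area 3. This was the pattern of 13 of the 20 stromal markers and of 4.67% of all tested genes. It was also that of 6 of 10 cumulus and granulosa markers, so its name does not single out stromal cells. ANXA1 inhibits phospholipase A2 and is induced by glucocorticoids, and it is abundant in fibroblasts and leukocytes as well as epithelia. Its ratios were -2.36, -1.56, 1.78 and -1.10, a mean of -0.81 ± 1.81 (n = 4). The log2 intensity of ANXA1 was 9.49, 9.93, 13.15 and 10.60 in the HG pools and 11.85, 11.49, 11.37 and 11.70 in the CTL pools. The CTL pools spanned 0.48 and the HG pools 3.66, with 3 HG pools below and 1 HG pool above all CTL pools. The spread of ANXA1 therefore lay in the HG pools, and their order, from area 1 through areas 2 and 4 to area 3, was that of the summed stromal markers. The HG pools of ANXA2, ANXA3 and ANXA5 had this same order, though for ANXA3 only the HG pool of area 3 was above background. How many of all tested genes share the order was not counted. Among CTL pools, that of area 1 was the highest for the summed stromal markers, ANXA1 and ANXA5 but the lowest for ANXA2. On area 2 the ANXA1 ratio was -1.56, where the stromal median was -0.01 and the epithelium median -1.44. Without area 3 the mean ratio of ANXA1 was -1.67, and without area 1 it was -0.29.

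ANXA4, an annexin of secretory and apical membranes in epithelia, had ratios of -1.61, -0.33, 1.39 and -0.74, a mean of -0.32 ± 1.26 (n = 4). Its log2 intensity was 7.97, 7.79, 10.46 and 9.04 in HG and 9.58, 8.11, 9.07 and 9.78 in CTL. Among the CTL pools of ANXA4, the lowest was that of area 2, as for the summed stromal markers, and the pools of areas 1 and 4 were the highest for both. ANXA4 was the nearest of the 10 genes to the stromal median, at a Euclidean distance of 1.01, against 1.65 for ANXA1 and 1.85 for ANXA5. Its mean depended on single areas: it was 0.11 without area 1, -0.89 without area 3 and -0.18 without area 4.

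ANXA5, which binds phosphatidylserine exposed on dying cells, lay just outside the bounds. Its ratios were -0.73, -0.12, 1.45 and 0.14, a mean of 0.18 ± 0.92 (n = 4), or -0.24 without area 3 and 0.49 without area 1. Log2 intensities were 13.36, 13.37, 14.93 and 13.79 in the HG pools and 14.09, 13.49, 13.47 and 13.65 in the CTL pools. The HG pool of area 3 stood above the other 7 pools, and the CTL pool of area 1 was the second highest. Near the bound of -1 on area 1, ANXA3 was the nearest gene inside (-1.23) and ANXA5 the nearest outside. Near the bound of 1 on area 3, ANXA4 (1.39) was the nearest inside and ANXA11 (0.40) the nearest outside. Stromal markers moved with ANXA1, ANXA4 and ANXA5 on areas 1 and 3, and their part in these ratios was not tested.

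**Figure D4:**
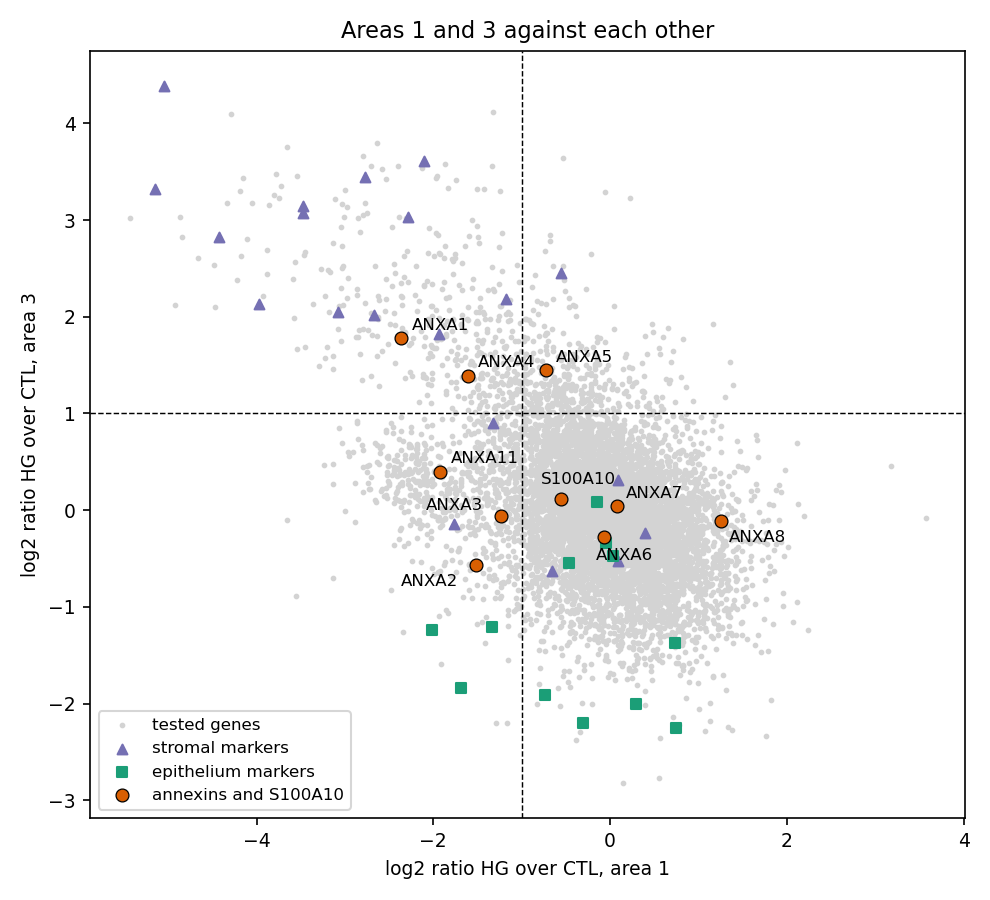
Log2 ratio of HG over CTL on area 1 (horizontal axis) against area 3 (vertical axis) for all tested genes (grey), stromal markers (purple triangles), epithelium markers (green squares) and the annexins with S100A10 (orange, labelled). Dashed lines mark -1 and 1. ANXA1 and ANXA4 lie in the upper left corner with most stromal markers, and ANXA2, ANXA3 and S100A10 lie below it.

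The remaining annexins varied little or differed on area 1 alone. ANXA11, whose long amino terminus ties RNA granules to lysosomes, had ratios of -1.92, 0.14, 0.40 and 0.36, a mean of -0.26 ± 1.12 (n = 4), or 0.30 without area 1. On area 1 its HG pool was the lowest of the 8 pools (log2 intensity 11.18) and its CTL pool the highest (13.11), and the other 6 pools lay between 12.14 and 12.61. ANXA8, a calcium-dependent anticoagulant and endosomal annexin that the RefSeq table of assembly ARS-UCD2.0 lists as a synonym of ANXA8L1, went the other way. Its ratios were 1.25, -0.12, -0.11 and -0.51, a mean of 0.13 ± 0.77 (n = 4), or -0.25 without area 1 and 0.34 without area 4, and its CTL pool on area 1 was the lowest of the 8 (8.67 against 9.93 or more). ANXA6, which has a duplicated core and acts on endosomes and cholesterol, had ratios between -0.28 and 0.43 (mean -0.01 ± 0.31, n = 4). ANXA7, a membrane fusion annexin, had ratios between -0.28 and 0.08 (mean -0.09 ± 0.18, n = 4). The SD of ANXA6 and ANXA7 was below the median SD of all tested genes, 0.47, while that of the other 8 genes was above it.

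Several probes were present for 4 of the genes, and they agreed in part. For ANXA5, all 3 probes were above background in every pool. The 3 probes had ratios of -0.73, -1.47 and -0.76 on area 1 and of 1.45, 1.13 and 1.77 on area 3, so that 1 of them met both bounds. With the bright probes of ANXA1 and ANXA4, 3 of the 14 tested probes met them (3.3% of all tested probes). On area 2 they were at -0.12, -0.91 and 0.03 and on area 4 at 0.14, 0.04 and -0.67, without a shared sign. For ANXA4, the dimmer probes were above background in 2 of 4 and 1 of 4 pools of each group, with ratios of -0.77 and -0.38 on area 1 and 1.29 and 1.24 on area 3, the same signs as the bright probe. For ANXA11, the ratio of -1.92 on area 1 belonged to the brightest of its 4 probes. The other 3 were at -0.30, -0.03 and -0.36 there, with signal above background in 8, 7 and 4 of 8 pools, while all 4 were between 0.34 and 0.50 on areas 3 and 4. The further ANXA3 probe was above background in 0 of 8 pools and bears on nothing. ANXA1, ANXA2, ANXA6, ANXA7, ANXA8 and S100A10 had 1 probe each, so their values have no second probe beside them.

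**Figure D5:**
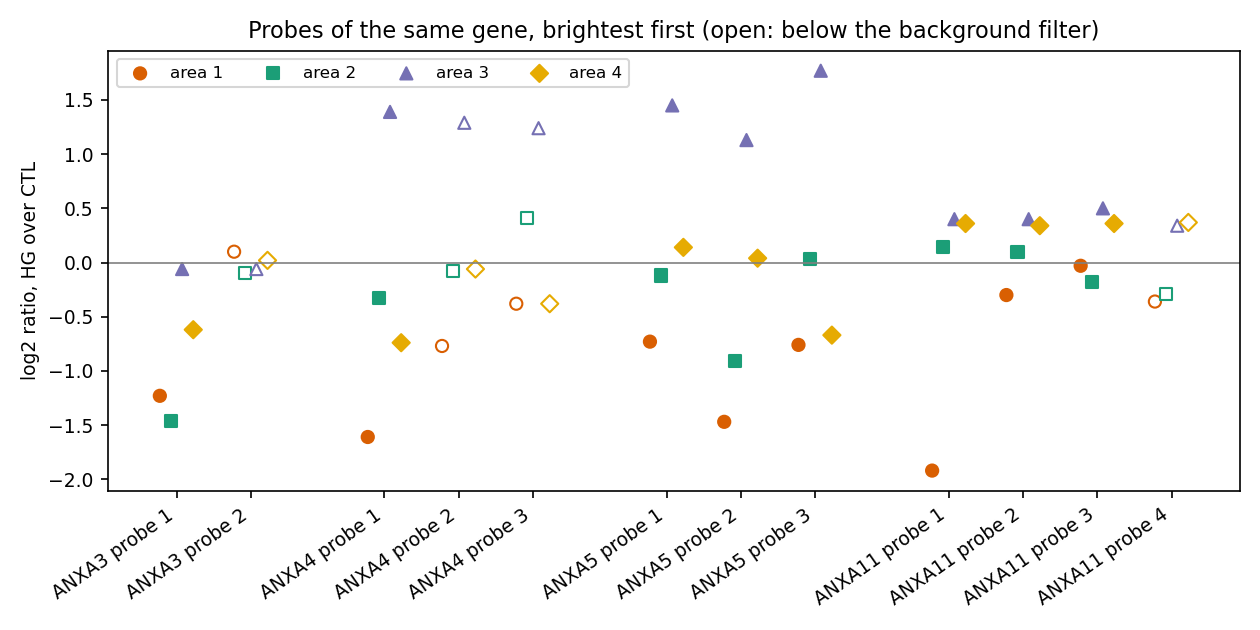
Log2 ratio of HG over CTL (vertical axis) for each probe of ANXA3, ANXA4, ANXA5 and ANXA11, brightest first. Symbols are array areas, and open symbols are probes below the background filter. The ANXA5 and ANXA4 probes share a high ratio on area 3, and the low ratio of ANXA11 on area 1 is seen for its brightest probe alone.

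Genes nearest to ANXA2 over the 4 ratios, of 8873 compared by Euclidean distance, were PRDX1 (0.51), SPINT2 (0.62) and ACLY (0.65). PRDX1 ratios were -1.60, -2.15, -0.57 and -1.24 on areas 1 to 4. ANXA1 had the widest gap between areas 3 and 1 of the 10 genes (4.15), which ranked 171 among all tested genes. Nearest to ANXA1 were LOC511937 (0.28), MTCP1 (0.66) and PPDPF (0.69). LOC511937 had ratios of -2.10, -1.54, 1.70 and -1.04.

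Other S100 genes varied among themselves. Of 16 on the array 9 passed the background filter, with medians of -0.35, 0.17, -0.24 and -0.59. S100A14 and S100A16 were lower on all 4 areas (8.03% of all tested genes) and 0 higher (6.03%). S100A11 and S100A13 had the stromal pattern (4.67%). S100A11 is listed as a neighbour of S100A10 in the gene order of assembly ARS-UCD2.0. S100A11 ratios were -4.22, 0.52, 2.38 and -1.51, those of S100A13 were -2.06, 0.17, 1.98 and -0.90, against 0.12 for S100A10 on area 3. S100A14, found mainly in epithelia, was at -0.04, -1.23, -0.68 and -0.59, and S100B at 0.17, 0.71, -0.10 and -0.49. ANXA9, ANXA10 and ANXA13 had probes, but 0 of these 3 annexins passed the filter.

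The ANXA2 and S100A10 complex presents plasminogen and its activator at the cell surface. Genes of the plasminogen system mostly lay with the stromal markers. Of 8 on the array 6 passed the filter. The stromal pattern was seen for 5, PLAT, PLAUR, SERPINE2, SERPINB2 and ENO1 (4.67% of all tested genes). On all 4 areas 1 was lower (8.03%) and 0 higher (6.03%). PLAT, the tissue plasminogen activator, was at -4.33, 0.29, 3.18 and -1.27. The inhibitor genes SERPINE2 and SERPINB2 were at -2.01 and -1.13 on area 1 and at 1.59 and 2.03 on area 3. PLAU, the urokinase activator, was the 1 gene lower on all 4 areas (-0.78 ± 0.33, n = 4).

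Among genes of the membrane cortex and of membrane repair, in which annexins take part, 26 of 35 passed the filter. Of these 26, 7 were lower on all 4 areas (8.03% of all tested genes), and ACTN4 and CHMP4C were higher on all 4 (6.03%). MYOF and VPS4A had the stromal pattern (4.67%). The median of the mean ratios of the 26 genes was -0.32, against -0.02 for all tested genes. The brightest were ACTN1 (-0.23 ± 0.75), an actin crosslinker, PDCD6 (-0.16 ± 0.32), a calcium sensor of membrane repair, VCL (-0.14 ± 0.74), which anchors actin at adhesions, and CHMP4B (-0.10 ± 1.93), an ESCRT subunit, with n = 4 for each. AHNAK and EZR, 2 of the 7 lower genes, were picked after their values were seen. AHNAK, a giant scaffold bound by the complex of ANXA2 with S100A10, was at -1.44, -1.72, -0.08 and -0.15. EZR, ezrin, which ties cortical actin to the membrane of epithelial microvilli, was at -0.86, -2.55, -0.91 and -0.84. Its relatives MSN (0.07, 0.04, -0.76 and -0.83) and RDX (0.50, -0.61, -1.16 and 0.33) had mixed signs. In the list of calcium handling proteins 10 of 14 passed the filter, with GCA lower and CALB1 higher on all 4 areas and a median of mean ratios of -0.04. CALR, a calcium store of the endoplasmic reticulum, was at -0.23 ± 0.98 and ATP2A2, its calcium pump, at 0.05 ± 0.46 (n = 4). SRI, the calcium sensor sorcin, was at -0.42 ± 0.59 and ITPR1, a calcium release channel, at 0.00 ± 0.47 (n = 4). Of phospholipase A2 genes and annexin A1 receptors 4 of 5 passed, with 0 lower and 0 higher on all 4 areas, and PLA2G4A, the cytosolic phospholipase, was at 0.07 ± 0.53 (n = 4). The others were PLA2G6 (-0.05 ± 0.09), PLA2G12A (0.13 ± 0.57) and the cyclooxygenase gene PTGS1 (-0.09 ± 0.27). The limma fit called 0 genes in each of these lists.

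Markers of other cells that the pools could hold were also set beside the annexins. Of cumulus and granulosa markers, 10 of 22 passed the filter, and 6 had the stromal pattern (4.67% of all tested genes). The medians of these markers were -1.7, 0.08, 1.69 and -0.15. Their summed intensity ran from 11900 to 54300 in HG pools and from 16300 to 47300 in CTL pools. Above the filter, the steroidogenic gene STAR was at -1.92, 0.40, 2.65 and -1.30 and the inhibin subunit gene INHBA at -2.02, 1.06, 2.11 and 0.04. CYP19A1 (-0.83, -0.49, -0.42 and -0.24) and NR5A1 (-0.13, -0.46, 0.25 and 0.14) also passed, with dim signal (mean log2 intensity 7.20 and 7.45). Neither had the stromal pattern, nor did FST and TNFAIP6. CYP11A1, FSHR, LHCGR, AMH and FOXL2 did not pass. GJA1, a gap junction gene, was at -3.36, 0.08, 2.13 and 0.48, and SERPINE2, given above, is in this list too. Of leukocyte and blood markers 4 of 10 passed (medians -0.46, 0.11, -0.03 and 0.06), with CD14, CD163, CD74, LYZ, ITGAM and CD3E below the filter. Their summed intensity ran from 956 to 2330 in HG and from 871 to 8250 in CTL, and in each group it was highest on area 1. There PTPRC was raised in both pools, with log2 intensities of 10.4 in HG and 12.74 in CTL and a ratio of -2.33. In the other pools it lay between 6.99 and 7.51. Of endothelial markers 3 of 6 passed (medians -0.39, 0.36, -0.05 and 0.28), with PECAM1, CDH5 and VWF below it. Neither list had a gene with the stromal pattern. Oocyte markers, 6 of 11 above the filter, had medians between 0.02 and 0.19.

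The direction of area 3 matters for several annexins. Between areas 1 and 3 the correlation of the HG over CTL ratios was -0.44, and for the other pairs of areas it was 0.05 to 0.23 (Pearson, across 20226 probes of the same arrays, which are not independent replicates). The labels state the dyes of each area, so the direction was kept. With the sign of area 3 turned, ANXA2 was at -0.91, ANXA3 at -0.81, S100A10 at -0.70, ANXA1 at -1.70, ANXA4 at -1.02 and ANXA5 at -0.54. With the sign of area 1 turned these were -0.43, -0.22, -0.37, 0.37, 0.49 and 0.55. On areas 2 and 4 alone, 1 of each dye orientation and with stromal medians nearer to 0, ANXA2 was at -1.34, ANXA3 at -1.04, S100A10 at -1.07, ANXA1 at -1.33, ANXA4 at -0.53 and ANXA5 at 0.01. The means of ANXA2 and S100A10 were below 0 under each of these 3 choices, as was that of ANXA7 (-0.11, -0.13 and -0.24). That of ANXA3 was too, but ANXA3 passed the filter only through its CTL pools, so its sign is not read. When area 1 or area 3 was turned, ANXA2 was not below 0 on every area.

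In the authors' deposited log2 ratios, turned in the same way, ANXA2 was at -1.14, -1.71, -0.70 and -0.91 on areas 1 to 4 and S100A10 at -0.33, -1.50, 0.01 and -0.60. ANXA1 was at -2.03, -1.44, 1.67 and -1.13, and ANXA4 at -1.37, -0.32, 1.28 and -0.69. Those values come from the same spots, and for each of these 4 genes the areas fell in the same order as above. Their background correction and normalization are not given in the sources used here.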

How the data were processed

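The scanner files held raw spot intensity for Cy3 and Cy5 with local background, unnormalized, per the file headers. The authors' deposited log2 ratios were found to run as Cy5 over Cy3 (correlation with the scanner ratios 0.976 to 0.993, slopes 0.911 to 0.948, medians between -0.01 and 0.02). The submitters' processing notes name limma, and the scale of that table beyond this is unknown. Total RNA was amplified by T7 transcription and labelled chemically, per the labels' protocols.

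Mean intensities were corrected with normexp (offset 50, median local background) and normalized within each array by loess (limma 3.58.1, R 4.3.3), in which control spots had weight 0. Between 29 and 151 spots per area carried the ignore mark and were left out. Pool levels also had Aquantile scaling between areas. Between 50.3 and 63.2% of probes were above background per pool, and 4 arrays limit the precision. Ratios turned to HG over CTL were fitted against 0 with lmFit and eBayes, Benjamini-Hochberg adjusted over 8874 genes, after the fit was tested on simulated data. Platform symbols (21790 probes) were updated through RefSeq synonyms for 981 of 15229. In each pathway list the genes named were the 4 brightest. Others named, such as marker genes, genes below the filter or behind a count of 5 or fewer, were picked after their values were seen. The genes nearest to ANXA2 and ANXA1 were named by distance. The members and lists were chosen with earlier results of these data known. Alternatives covered background, normalization, filters, probes, areas left out, turned signs and a dye term.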

Additional observations from a re-analysis of the deposited data

Results flagged for a closer look

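Among 38 sets of 4 values, 4 had an extreme value with a wide gap to its nearest neighbour, which about 1 set in 20 has by chance. The sets are not independent, since the ratio, HG level and CTL level of the same probe count apart. The number flagged is therefore not weighed against that share. All 4 concerned area 1. The brightest ANXA11 probe had a log2 ratio of HG over CTL of -1.92 there, with its HG pool at a log2 intensity of 11.18 and its CTL pool at 13.11, each far from the other 3 pools of its group. ANXA7 had a CTL pool at 8.79 on area 1, against values between 9.23 and 9.24 in the other CTL pools.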

How the results depend on the processing

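The number of genes past the adjusted threshold stayed at 0 except on areas 2 and 4 alone, where limma called 33 (0.372%), with 0 of the 10 annexin and S100A10 genes among them (unadjusted count 1040). Leaving out 1 area gave 269 (without area 2) to 856 (without area 3) genes by unadjusted p, with 273 without area 4 and 0 past the threshold, and turning area 3 gave 1013. Median centring changed the unadjusted split from 211 higher and 365 lower to 110 and 492, with medians of all genes of -0.08, -0.01, -0.12 and -0.05 on areas 1 to 4. Genes with 1 sign on every area used numbered 1248 of all tested on 4 areas, 1942 to 2798 without 1 area and 4784 on areas 2 and 4, since fewer areas have to match. Of the 10 genes, 2 to 5 had 1 sign without 1 area (21.9 to 31.5% of all tested genes), with 5 without area 3 (31.5%) and 4 without area 1 (30%). On areas 2 and 4 there were 8 (53.9%). With area 3 turned there were 3, ANXA1, ANXA4 and S100A10 (17.5%), and with area 1 turned 2, ANXA8 and ANXA11 (15.9%). Median centring gave 4, S100A10 and ANXA7 joining (14.4%), and the median of pixels gave 1, ANXA2 (14.5%). With area 3 or area 1 turned, the stromal pattern was met by 23 or 4 genes in all. It was met by 0 of the 10 genes, as the turned sign requires. ANXA1 and ANXA4 met the pattern under the other 12 alternatives that gave a value. Some of these could not change that outcome. Leaving out area 2 or 4, the looser filters and the mean over tested probes left both genes' ratios on areas 1 and 3 as they were. Without area 1 or 3, and for the dye term, the pattern has no value. Over 17 alternatives the mean of ANXA2 ran from -1.40 to -0.43 and that of S100A10 from -1.07 to -0.34, both below 0 throughout. The mean of ANXA7 (-0.24 to -0.01) was below 0 throughout as well, and that of ANXA6 ran from -0.25 to 0.15. For ANXA3 the mean ran from -1.10 to -0.22, a sign not read because ANXA3 passed the filter only through its CTL pools. All alternatives use the same arrays, so a sign held throughout is a description. The mean of ANXA1 ran from -1.70 to 0.37, ANXA4 from -1.02 to 0.49, ANXA5 from -0.54 to 0.55, ANXA8 from -0.50 to 0.34 and ANXA11 from -0.47 to 0.71. With the mean over tested probes, ANXA5 was at -0.01 and ANXA11 at 0.01. The mean local background was tried after the data were seen. ANXA3 and the dimmest ANXA4 and ANXA11 probes were not above background in every pool, which limits their ratios.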
